A study of Mus musculus with 6 samples.

Results

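The 34 genes described here make ribosomes in the nucleolus or shape the nucleolus itself. They were chosen by symbol, as RNA polymerase I factors, small nucleolar ribonucleoproteins (snoRNPs), ribosomal RNA processing factors and subunit assembly factors whose failure is known to activate p53. All 34 had a row among the 24110 genes of the deposited table. The rule names symbols and uses no measured value, but the members were chosen with earlier results of these data known. The study asked how loss of PRMT5, the main enzyme that symmetrically dimethylates arginine in proteins, affects hematopoietic stem cells (HSCs). RNA was sequenced from 2 groups of C57BL/6 mouse HSCs: Prmt5 KO, in which the floxed alleles had been deleted (Prmt5Δ/Δ), and Prmt5 fl/fl, in which both alleles carried the flanking sites. Cells of both groups were sorted from bone marrow as lineage-negative, Sca-1+, CD48-, CD150+ cells 7 days after induction, with mice matched by litter and sex. Each group had 3 libraries, and each library pooled the cells of 2 mice. The sources used here did not name the inducing agent, the Cre driver or the age of the mice. The libraries were made from amplified cDNA of the whole sorted pool. In such bulk samples, fewer cells of a type and less RNA per cell cannot be told apart.

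Ribosome production begins when RNA polymerase I copies ribosomal DNA into a long precursor RNA. Box C/D and box H/ACA snoRNPs modify that precursor, large complexes cut and fold it into the small and the large subunit, and export factors finish both outside the nucleus. When this work is disturbed, unassembled RPL5 and RPL11 bind MDM2 and p53 accumulates. MYC is a known activator of these genes. HSCs are known to make protein slowly compared with their progeny, and mutations in several of these factors cause bone marrow failure in people.

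The deposited libraries held between 37834096 and 44704636 reads assigned to genes, and values are given as scaled counts, which are reads multiplied to a common total of 44704636 per library. Prmt5 itself was at 1056, 1049 and 897 scaled counts in Prmt5 KO replicates 1 to 3, against 6076, 6024 and 6010 in Prmt5 fl/fl replicates 1 to 3, a log2 fold change of -2.60 (95% interval -2.90 to -2.30, limma adjusted p = 6.18e-04) that followed the genotype labels. With the replicate number as a block its adjusted p was 0.0618. Among 14113 genes whose mean reached 10 scaled counts, limma called 103 genes at an adjusted p below 0.05, which is 0.73% of them, and 1 gene with the block. Of the 103 called genes 37.9% were higher in Prmt5 KO cells, against 61.4%, 52.2%, 59.4% and 56.7% of the calls with size factors, TMM, quantile normalization and edgeR. The share was 37.2% with DESeq2 and 32.0% without Prmt5 fl/fl replicate 3. All 10 stem cell markers and all 10 proliferation markers had reads in every library, and their sums overlapped between the groups. The stem cell marker sum was 88278 to 103418 scaled counts in Prmt5 KO libraries and 81843 to 126555 in Prmt5 fl/fl libraries. Single stem cell markers differed in both directions, with log2 fold changes from -0.997 to 0.663, and none passed the limma test. In 2 of the 10 all Prmt5 KO values lay above all Prmt5 fl/fl values (beside 8.3% of all genes), and in 2 all lay below (beside 19.9%). DESeq2 called 1 higher and 1 lower, against a background of 6.95% of genes. Prmt5 fl/fl replicate 3 and Prmt5 KO replicate 3 stood apart from the other libraries in ways that touch these genes, and both are described below with the results that rest on them.

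The stretch of DNA around the start of each gene was examined for the E-box CACGTG, the motif that MYC with its partner MAX is known to bind. RefSeq windows of 250 bases before and 50 bases after the start (build GRCm38.p6) were matched by symbol for 28 of the 34 genes. Bop1, Fbl, Npm1, Rrp12, Rrs1 and Sbds had no matched window. The motif reads the same on both strands, so each match counts once, and no other motif was searched. Counted by gene, it was found in 8 of 28 members (28.6%), against 16 of 105 other ribosome biogenesis genes (15.2%), 1221 of 10537 tested genes (11.6%) and 2187 of all 27025 symbols with a window (8.09%). Some genes have several windows, among the members Ubtf with 6 and Wdr12 with 3. Counted by window, the motif was in 8 of the members' 35 (22.9%), against 1307 of 13377 windows of tested genes (9.77%) and 2349 of all 32851 windows (7.15%). A match lay after the start in 6 of the 28 members (21.4%), against 6 of 105 other ribosome biogenesis genes (5.71%) and 1.87% of tested genes. The 24-base stretches that hold each match are shown with the motif in capitals, so that its place can be seen in the genes the results return to, among them Utp20, Mybbp1a, Tsr1 and Rrn3. A match describes the letters and is not evidence of binding.
Nop2 (chr6:125131809-125131832, plus strand): gcgtgtccctggatCACGTGtgtt
Ltv1 (chr10:13193100-13193123, minus strand): tagccctgtggaccCACGTGtgga
Utp20 (chr10:88826768-88826791, minus strand): agcggcactaactaCACGTGagga
Pes1 (chr11:3963963-3963986, plus strand): ggccctaggcagggCACGTGcggg
Mybbp1a (chr11:72441353-72441376, plus strand): ctgtcttctgagccCACGTGtttg
Tsr1 (chr11:74898090-74898113, plus strand): gttcacttggtgcaCACGTGgact
Rrn3 (chr16:13780470-13780493, plus strand): ctgagcgccaaggtCACGTGcaca
Rrn3 (chr16:13780637-13780660, plus strand): ccttacgctctgctCACGTGggcc
Wdr43 (chr17:71616218-71616241, plus strand): tgcgcccgggcgaaCACGTGgctg

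Whole windows are shown for Ncl and Mybbp1a, which with Rrp12 had the smallest unadjusted p of the 34 genes. The Ncl window lies at chr1:86359406-86359705 on the minus strand and held no CACGTG. The Mybbp1a window lies at chr11:72441077-72441376 on the plus strand, with its match in capitals near its 3′ end.
Ncl: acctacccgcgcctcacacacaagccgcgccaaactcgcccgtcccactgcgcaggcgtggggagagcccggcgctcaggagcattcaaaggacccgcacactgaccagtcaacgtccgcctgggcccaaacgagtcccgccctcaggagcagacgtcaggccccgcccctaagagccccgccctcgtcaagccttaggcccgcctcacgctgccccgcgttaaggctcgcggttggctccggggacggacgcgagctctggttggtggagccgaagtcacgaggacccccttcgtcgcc
Mybbp1a: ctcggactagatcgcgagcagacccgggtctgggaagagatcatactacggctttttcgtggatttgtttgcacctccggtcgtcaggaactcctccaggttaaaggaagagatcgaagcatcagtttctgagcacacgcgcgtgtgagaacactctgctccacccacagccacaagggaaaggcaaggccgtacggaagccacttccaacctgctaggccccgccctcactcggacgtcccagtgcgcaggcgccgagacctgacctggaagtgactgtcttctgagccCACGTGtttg

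None of the 34 genes passed the test between Prmt5 KO and Prmt5 fl/fl cells, and 24 of them had a log2 fold change above 0. The median log2 fold change over the 34 genes was 0.089, beside -0.048 over all 14113 genes, and 24 of 34 is 70.6%, beside 44.8% of all genes. The median was 0.0083 without Prmt5 KO replicate 1, with 18 of 34 above 0, and 0.15 without Prmt5 KO replicate 3, with 30 above 0. With size factors it was 0.18, with 31 above 0. All 34 passed the filter on low values, and each had a mean above 1418, the median over all tested genes. The lowest value of any member in any library was 1037 scaled counts, from 979 reads. Adjusted p ranged from 0.252 to 0.997 in limma. The smallest was 0.184 in edgeR's quasi-likelihood test, 0.0962 in DESeq2 and 0.299 with the replicate block. The background of calls was 0.73% in limma, 0.425% in edgeR and 6.95% in DESeq2. At an unadjusted p below 0.05, 2 members were higher (5.88% of 34, beside a background of 4.58%) and 0 were lower (background 13.6%). In 7 members, all 3 Prmt5 KO values lay above all 3 Prmt5 fl/fl values (20.6%, beside 8.3% of all genes), and in 2 members all 3 lay below (5.88%, beside 19.9%). The 7 were Rrn3, Polr1a, Utp20, Rrp12, Tsr1, Ncl and Mybbp1a, and the 2 were Nop56 and Sbds.

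**Figure D1:**
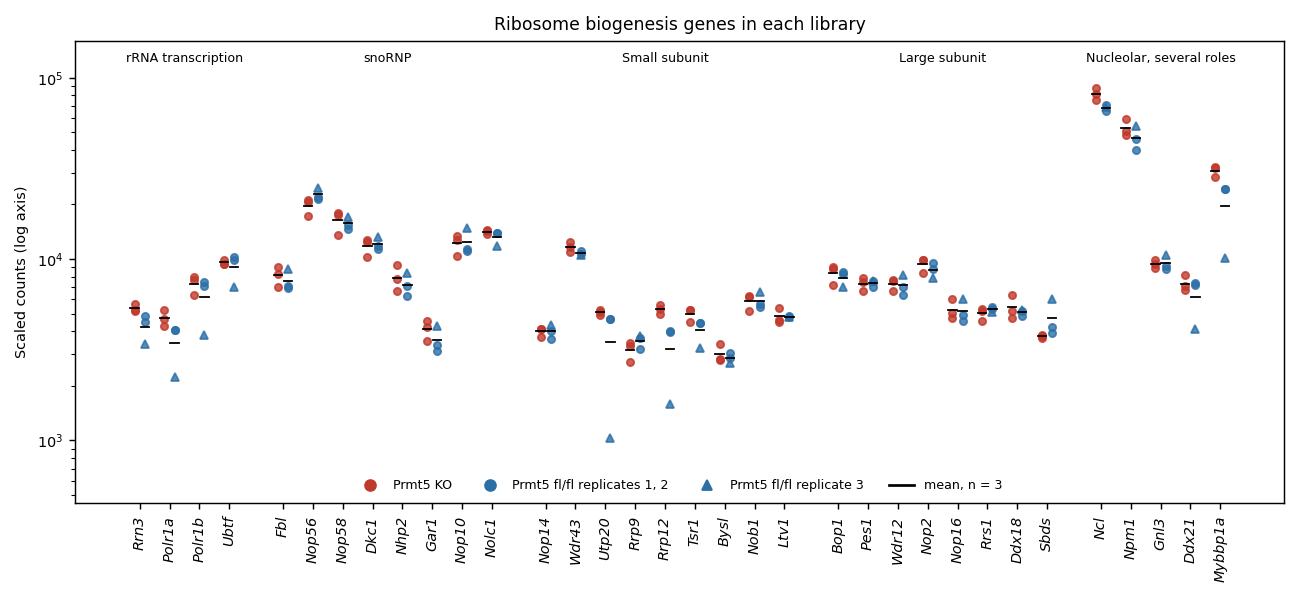
Scaled counts of the 34 genes in each library on a log axis, ordered by role, with Prmt5 KO libraries in red left of Prmt5 fl/fl libraries in blue and a bar at each group mean (n = 3). Triangles mark Prmt5 fl/fl replicate 3, which lies far below all other libraries for Utp20 (1037), Rrp12 (1596) and Mybbp1a (10144).

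Each 95% interval bounds the change of 1 gene as a share of the reads, not per cell and not for all genes jointly. The interval of the fold change lay within 2-fold in either direction for 30 of the 34 genes and within 1.5-fold for 24. Both counts depend on the scaling. With size factors the upper limit on the log2 scale was 1.01 for Polr1b, past 2-fold. It was 0.60 for Nhp2 and 0.62 for Npm1, past 1.5-fold. The fold changes themselves ran from 0.811 for Sbds to 1.80 for Rrp12. The standard error had a median of 0.144 on the log2 scale, with a range of 0.106 to 0.543, the highest being that of Utp20. A p that misses the threshold does not show that the groups were alike, and the interval of Utp20, -0.43 to 2.11 on the log2 scale, was the widest.

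**Figure D2:**
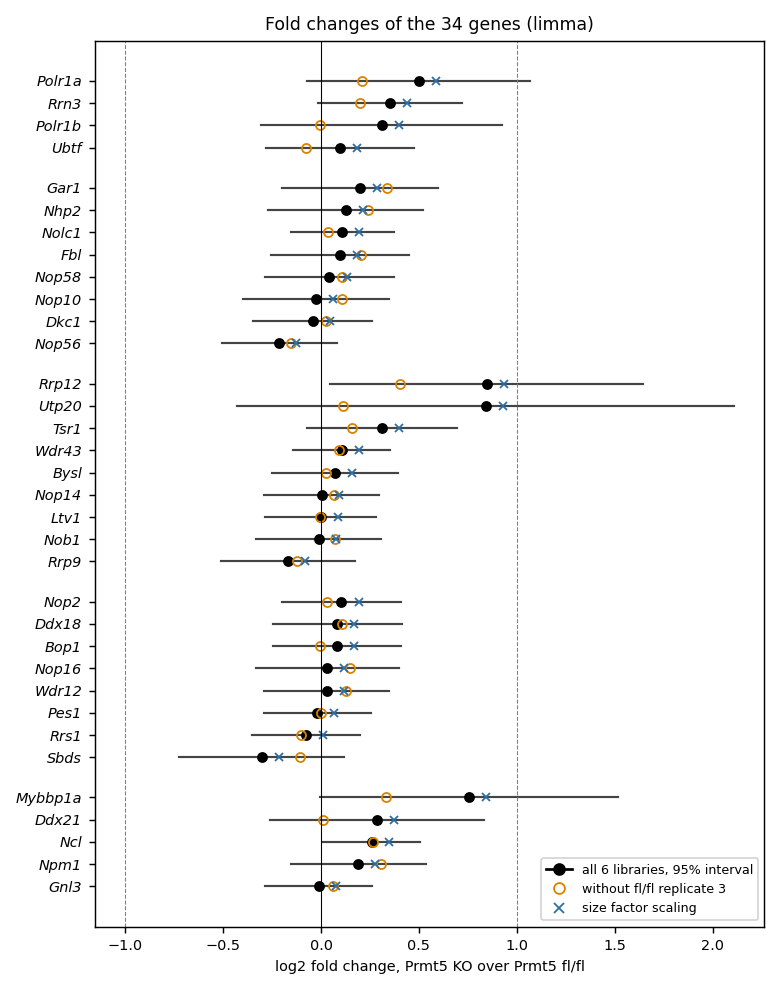
Log2 fold change (Prmt5 KO over Prmt5 fl/fl) of each gene in limma, with filled points and 95% intervals for all 6 libraries, open circles without Prmt5 fl/fl replicate 3, crosses with size factors on all 6, and dashed lines at 2-fold. Values ran from -0.30 for Sbds to 0.84 for Rrp12 and Utp20, and for Utp20 the value without that library was 0.11.

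The 4 genes of ribosomal RNA transcription all had a higher mean in Prmt5 KO cells, with a median log2 fold change of 0.33, and none passed the test. Without Prmt5 fl/fl replicate 3 that median was 0.098 and 2 of the 4 were above 0. Rrn3, which encodes TIF-IA, the factor that makes RNA polymerase I competent to initiate, was at 5232, 5196 and 5656 scaled counts in Prmt5 KO replicates 1 to 3, against 4827, 4504 and 3401 in Prmt5 fl/fl replicates 1 to 3. The groups did not overlap, and its log2 fold change was 0.35 (95% interval -0.016 to 0.72, limma adjusted p = 0.293), or 0.20 without Prmt5 fl/fl replicate 3. Polr1a, the largest subunit of the polymerase, had 4646, 5222 and 4290 scaled counts in the Prmt5 KO libraries and 4079, 4046 and 2237 in the Prmt5 fl/fl libraries. These groups did not overlap either, but the lowest value, 2237 in Prmt5 fl/fl replicate 3, was far under the others of its group, and the log2 fold change of 0.50 (95% interval -0.071 to 1.07, limma adjusted p = 0.332) was 0.21 without that library. Polr1b, the second largest subunit, was at 7679, 7979 and 6338 scaled counts in Prmt5 KO replicates 1 to 3, against 7149, 7481 and 3803 in Prmt5 fl/fl replicates 1 to 3. Prmt5 KO replicate 3 lay below Prmt5 fl/fl replicates 1 and 2, so the groups overlapped, and the log2 fold change of 0.31 (95% interval -0.30 to 0.93, limma adjusted p = 0.561) was -0.0035 without Prmt5 fl/fl replicate 3. Ubtf, the ribosomal DNA binding protein that keeps the repeats open, had 9388, 9907 and 9447 scaled counts in the Prmt5 KO libraries and 10269, 9919 and 7045 in the Prmt5 fl/fl libraries, and its log2 fold change was 0.097 (95% interval -0.28 to 0.48, limma adjusted p = 0.781), or -0.076 without that library. Ubtf had the highest level per length of the 4, at 1993 ± 59.1 scaled counts per kilobase in Prmt5 KO cells and 1889 ± 368 in Prmt5 fl/fl cells (SD, n = 3 each), and Polr1a the lowest, at 773 ± 76.9 scaled counts per kilobase in Prmt5 KO cells and 565 ± 173 in Prmt5 fl/fl cells (SD, n = 3 each).

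The 8 snoRNP genes had a median log2 fold change of 0.069, or 0.11 without Prmt5 fl/fl replicate 3, and none passed the test. Nop56, a core protein of box C/D snoRNPs, which guide 2′-O-methylation, was at 20737, 21053 and 17203 scaled counts in Prmt5 KO replicates 1 to 3, against 21468, 22062 and 24731 in Prmt5 fl/fl replicates 1 to 3. Every Prmt5 KO value lay below every Prmt5 fl/fl value, as in only 1 other member (Sbds), with a log2 fold change of -0.21 (95% interval -0.51 to 0.08, limma adjusted p = 0.414). Its partners did not share that order. Fbl, the methyltransferase of the same particle, had 9081, 8251 and 7038 scaled counts in the Prmt5 KO libraries and 7149, 6887 and 8782 in the Prmt5 fl/fl libraries, and Nop58 had 17952, 17408 and 13633 scaled counts in the Prmt5 KO libraries and 15445, 14707 and 17149 in the Prmt5 fl/fl libraries. In both genes the groups overlapped, and the log2 fold changes were 0.095 for Fbl and 0.043 for Nop58. Of the box H/ACA proteins, which guide pseudouridylation and also bind telomerase RNA, Gar1 was at 4531, 4236 and 3513 scaled counts in Prmt5 KO replicates 1 to 3, against 3349, 3099 and 4296 in Prmt5 fl/fl replicates 1 to 3, with a log2 fold change of 0.20 (95% interval -0.20 to 0.60, limma adjusted p = 0.566). Nhp2 had 9264, 7770 and 6662 scaled counts in the Prmt5 KO libraries and 7072, 6218 and 8373 in the Prmt5 fl/fl libraries, with a log2 fold change of 0.13 (95% interval -0.27 to 0.52, limma adjusted p = 0.717). In Gar1 and Nhp2 replicates 1 and 2 of Prmt5 KO lay above those of Prmt5 fl/fl, while the replicates numbered 3 stood the other way round, and without Prmt5 fl/fl replicate 3 the log2 fold changes were 0.34 for Gar1 and 0.24 for Nhp2. Dkc1, the pseudouridine synthase, had 12707, 12387 and 10289 scaled counts in the Prmt5 KO libraries and 11750, 11365 and 13263 in the Prmt5 fl/fl libraries and a log2 fold change of -0.043. Nop10, the smallest of the 4 proteins, had the highest level per deposited length, at 16520 ± 2113 scaled counts per kilobase in Prmt5 KO cells and 16861 ± 2804 in Prmt5 fl/fl cells (SD, n = 3 each), from 13452, 12674 and 10448 scaled counts in the Prmt5 KO libraries and 11398, 11105 and 14826 in the Prmt5 fl/fl libraries, with a log2 fold change of -0.025. The groups overlapped in Dkc1 and Nop10. Without Prmt5 fl/fl replicate 3 the log2 fold changes were 0.20 for Fbl, 0.11 for Nop58, 0.023 for Dkc1, 0.11 for Nop10 and 0.033 for Nolc1. Nolc1, the chaperone that carries snoRNPs between Cajal bodies and the nucleolus, had 14506, 14254 and 13807 scaled counts in the Prmt5 KO libraries and 13885, 13838 and 11868 in the Prmt5 fl/fl libraries, and its log2 fold change was 0.11 (95% interval -0.15 to 0.37, limma adjusted p = 0.638).

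Of the 9 genes of the small subunit, 6 had a log2 fold change above 0, the median was 0.071, and none passed the test. Rrp12, a factor in the late processing and export of the pre-40S particle, was at 5295, 4949 and 5597 scaled counts in Prmt5 KO replicates 1 to 3, against 3960, 4003 and 1596 in Prmt5 fl/fl replicates 1 to 3. Its groups did not overlap, and it had the smallest p of all 34 genes, with a log2 fold change of 0.84 (95% interval 0.047 to 1.64, limma adjusted p = 0.252) and an unadjusted p of 0.0406 in limma. Without Prmt5 fl/fl replicate 3 the log2 fold change was 0.41, with a 95% interval of 0.20 to 0.62 and a limma adjusted p of 0.0615. Utp20, the scaffold protein of the small subunit processome with the longest deposited gene length of the list, was at 4917, 5226 and 5109 scaled counts in Prmt5 KO replicates 1 to 3, against 4702, 4689 and 1037 in Prmt5 fl/fl replicates 1 to 3. Replicates 1 and 2 of Prmt5 fl/fl and all 3 Prmt5 KO libraries lay between 4689 and 5226, while Prmt5 fl/fl replicate 3 held 1037. The log2 fold change of 0.84 (95% interval -0.43 to 2.11, limma adjusted p = 0.453) was 0.11 without that library. Tsr1, which holds the maturing small subunit back from translation, was at 5259, 5228 and 4470 scaled counts in Prmt5 KO replicates 1 to 3, against 4442, 4466 and 3240 in Prmt5 fl/fl replicates 1 to 3. The groups did not overlap, with 4470 as the lowest Prmt5 KO value beside 4466 as the highest Prmt5 fl/fl value, and the log2 fold change was 0.31 (95% interval -0.073 to 0.70, limma adjusted p = 0.368), or 0.16 without Prmt5 fl/fl replicate 3. Rrp9, the protein of the U3 snoRNP, had 3334, 3457 and 2717 scaled counts in the Prmt5 KO libraries and 3683, 3193 and 3765 in the Prmt5 fl/fl libraries, and its log2 fold change was -0.17 (95% interval -0.51 to 0.18, limma adjusted p = 0.576). Nob1, the nuclease that makes the final cut of the 18S RNA, had the highest level per length of the 9, at 3555 ± 353 scaled counts per kilobase in Prmt5 KO cells and 3584 ± 382 in Prmt5 fl/fl cells (SD, n = 3 each), from 6154, 6226 and 5183 scaled counts in the Prmt5 KO libraries and 5644, 5446 and 6620 in the Prmt5 fl/fl libraries. Its log2 fold change was -0.012 (95% interval -0.33 to 0.31, limma adjusted p = 0.971). The remaining 4, with overlapping groups, were Nop14 and Wdr43 of the processome, the assembly factor Bysl and the export adaptor Ltv1. Their log2 fold changes were 0.0028 for Nop14, 0.11 for Wdr43, 0.071 for Bysl and -0.0013 for Ltv1.

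The 8 genes of the large subunit had the smallest median of the 5 roles, a log2 fold change of 0.030 (0.014 without Prmt5 fl/fl replicate 3), and none passed the test. Sbds, which works with a GTPase to release eIF6 from the pre-60S particle and is mutated in Shwachman-Diamond syndrome, was at 3676, 3827 and 3755 scaled counts in Prmt5 KO replicates 1 to 3, against 3902, 4196 and 6060 in Prmt5 fl/fl replicates 1 to 3. All Prmt5 KO values lay below all Prmt5 fl/fl values, and the 6060 of Prmt5 fl/fl replicate 3 stood well above the rest. The log2 fold change of -0.30 (95% interval -0.72 to 0.12, limma adjusted p = 0.418) was -0.11 without that library. Nop2, a cytosine methyltransferase of the 28S RNA, was at 9837, 9880 and 8420 scaled counts in Prmt5 KO replicates 1 to 3, against 8801, 9551 and 7837 in Prmt5 fl/fl replicates 1 to 3. The groups overlapped, the log2 fold change was 0.10 (95% interval -0.20 to 0.41, limma adjusted p = 0.694), and its level per length was the highest of the 8, at 3576 ± 317 scaled counts per kilobase in Prmt5 KO cells and 3328 ± 328 in Prmt5 fl/fl cells (SD, n = 3 each). Rrs1, which helps to bring the 5S particle into the pre-60S particle, had 5307, 5200 and 4560 scaled counts in the Prmt5 KO libraries and 5425, 5335 and 5108 in the Prmt5 fl/fl libraries, with a log2 fold change of -0.077 (95% interval -0.35 to 0.20, limma adjusted p = 0.755). Ddx18, an RNA helicase, had 6339, 5165 and 4744 scaled counts in the Prmt5 KO libraries and 5176, 4827 and 5227 in the Prmt5 fl/fl libraries, with a log2 fold change of 0.083 (95% interval -0.25 to 0.41, limma adjusted p = 0.784). The groups overlapped in both. Bop1, Pes1 and Wdr12 form the PeBoW complex, and their log2 fold changes were 0.08 for Bop1, -0.018 for Pes1 and 0.029 for Wdr12. The groups overlapped in all 3, as they did in Nop16, with a log2 fold change of 0.031.

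The 5 nucleolar proteins with several roles had a median log2 fold change of 0.26, and none passed the test. Ncl encodes nucleolin, an abundant RNA-binding protein with an arginine- and glycine-rich tail, and was at 88294, 81703 and 75552 scaled counts in Prmt5 KO replicates 1 to 3, against 70526, 65680 and 68742 in Prmt5 fl/fl replicates 1 to 3. The groups did not overlap, and the replicates of each group lay close together. Its log2 fold change was 0.26 (95% interval 0.011 to 0.51, limma adjusted p = 0.258), with an unadjusted p of 0.0428 in limma, and 0.26 without Prmt5 fl/fl replicate 3. Mybbp1a, a nucleolar protein known to bind p53 when it leaves the nucleolus, was at 32172, 31795 and 28316 scaled counts in Prmt5 KO replicates 1 to 3, against 24332, 24422 and 10144 in Prmt5 fl/fl replicates 1 to 3. The groups did not overlap with or without the low Prmt5 fl/fl replicate 3. The log2 fold change of 0.75 (95% interval -0.0057 to 1.52, limma adjusted p = 0.277) was 0.33 without it, with a 95% interval of 0.12 to 0.54 and a limma adjusted p of 0.0882. Npm1, a nucleolar chaperone mutated in many acute myeloid leukemias, was at 59589, 50964 and 48237 scaled counts in Prmt5 KO replicates 1 to 3, against 45770, 39845 and 54081 in Prmt5 fl/fl replicates 1 to 3. Its groups overlapped through Prmt5 fl/fl replicate 3, and the log2 fold change was 0.19 (95% interval -0.15 to 0.53, limma adjusted p = 0.526), or 0.30 without that library. Ddx21, a helicase that binds both ribosomal RNA and snoRNAs, had 8120, 6785 and 7089 scaled counts in the Prmt5 KO libraries and 7338, 7196 and 4095 in the Prmt5 fl/fl libraries. Its log2 fold change of 0.28 (95% interval -0.26 to 0.83, limma adjusted p = 0.55) was 0.0085 without Prmt5 fl/fl replicate 3. Gnl3, the GTPase nucleostemin, had 9846, 9384 and 8985 scaled counts in the Prmt5 KO libraries and 8858, 9134 and 10512 in the Prmt5 fl/fl libraries and a log2 fold change of -0.012, with overlapping groups.

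Per length, the order of levels was led by Npm1, at 30809 ± 3449 scaled counts per kilobase in Prmt5 KO cells and 27104 ± 4162 in Prmt5 fl/fl cells (SD, n = 3 each), and by deposited length Nop10 followed in both groups. The Npm1 level of each group was separated from the Nop10 level by more than the spread between libraries. Then came Nop56, with 10377 ± 1128 scaled counts per kilobase in Prmt5 KO cells and 12007 ± 917 in Prmt5 fl/fl cells (SD, n = 3 each), and then Ncl, with 9913 ± 772 scaled counts per kilobase in Prmt5 KO cells and 8274 ± 297 in Prmt5 fl/fl cells (SD, n = 3 each). The difference between Nop56 and Ncl in Prmt5 KO cells was smaller than the spread. The lowest level per deposited length was that of Utp20, at 576 ± 17.7 scaled counts per kilobase in Prmt5 KO cells and 394 ± 239 in Prmt5 fl/fl cells (SD, n = 3 each). The deposited lengths lay within 10% of the longest coding transcript in GENCODE M21 for 29 members and not for the other 5. The transcript of Polr1a was 9216 bases against a deposited 6109, that of Nop10 1109 against 738, that of Ltv1 2297 against 1768, that of Nop58 9507 against 1976 and that of Wdr12 10012 against 3376. By transcript length the order turned in places. Nop10 then averaged 10993 scaled counts per kilobase in Prmt5 KO cells and 11220 in Prmt5 fl/fl cells, beside 10476 in Prmt5 KO cells and 12122 in Prmt5 fl/fl cells for Nop56. Polr1a became the lowest, at 512 in Prmt5 KO cells and 375 in Prmt5 fl/fl cells, below Utp20 with 576 in Prmt5 KO cells and 394 in Prmt5 fl/fl cells.

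Prmt5 fl/fl replicate 3 departed from the other Prmt5 fl/fl libraries in step with gene length. Over the 34 genes, Spearman's rho between the deposited gene length and the log2 difference of Prmt5 fl/fl replicate 3 from the mean of Prmt5 fl/fl replicates 1 and 2 was -0.84. The same coefficient was -0.70 over the 130 other ribosome biogenesis genes and -0.57 over all 14113 genes. These points share the 3 libraries, so the coefficients are descriptions. The median log2 difference was 0.32 in members under 2 kilobases, -0.11 in those of 2 to 4 kilobases and -0.86 in longer ones, beside 0.41, -0.0060 and -0.60 over all genes. Utp20 was at 0.221 times the mean of the other Prmt5 fl/fl libraries, Rrp12 at 0.401 times and Mybbp1a at 0.416 times, while Sbds lay 0.58 higher on the log2 scale. Ncl, at 1.01 times, did not follow its listed length. Of the 7 members whose Prmt5 KO values all lay higher, the 6 other than Ncl had their lowest Prmt5 fl/fl value in that library, and the part of length in their differences was not tested.

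**Figure D3:**
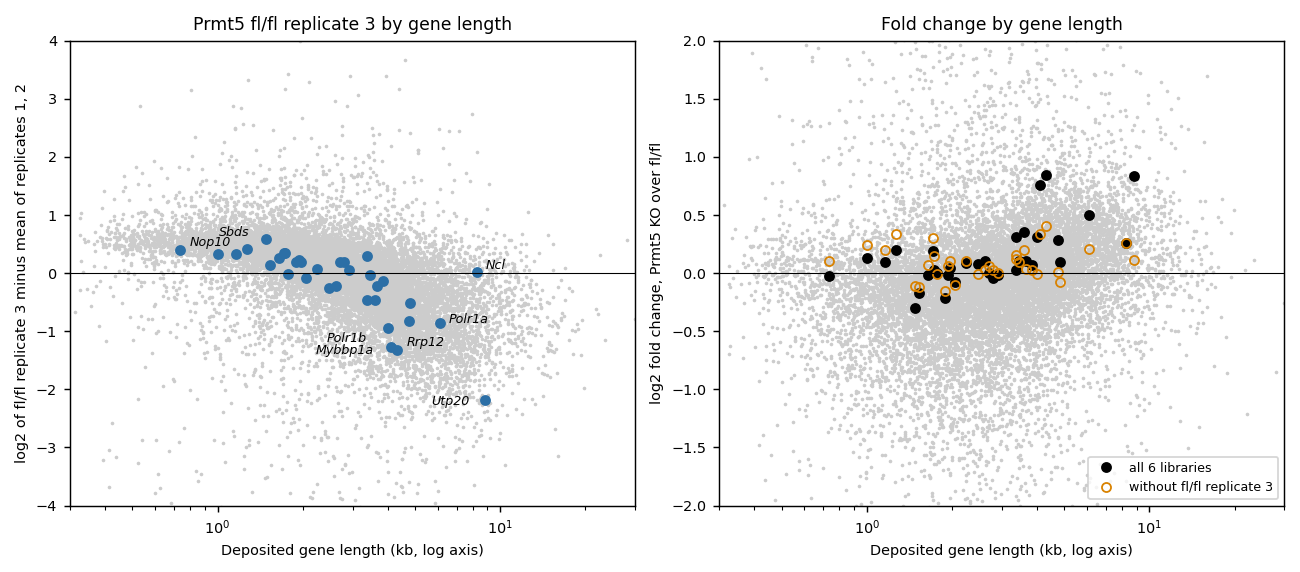
Left, log2 difference of Prmt5 fl/fl replicate 3 from the mean of Prmt5 fl/fl replicates 1 and 2 against deposited gene length (kilobases, log axis), and right, log2 fold change against the same length with all 6 libraries (filled) and without Prmt5 fl/fl replicate 3 (open). Grey points are all tested genes, those beyond the axis limits not being drawn, and on the left the members over 4 kilobases lie below 0, down to -2.18 for Utp20, apart from Ncl at 0.014.

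Left out, that library changed which members had the larger differences. The median log2 fold change of the 7 members longer than 4 kilobases was 0.50 with all libraries and 0.21 without Prmt5 fl/fl replicate 3, while that of the 13 members under 2 kilobases was -0.0013 and 0.11. The 14 members between had medians of 0.082 and 0.031. Over all genes of the same length classes the medians were 0.12 and -0.095 for long genes and -0.15 and -0.028 for short ones. Without the library, 5 members had an unadjusted p below 0.05 in the direction of Prmt5 KO (Gar1, Rrp12, Ncl, Npm1 and Mybbp1a). They were 14.7% of the 34, beside 7.48% of all genes, and 14 of the 130 other ribosome biogenesis genes did the same (10.8%). No member was called at the adjusted threshold, at which 378 genes (2.68%) were called. With size factors on all 6 libraries, 6 members were higher at an unadjusted p below 0.05 (Rrn3, Polr1a, Rrp12, Tsr1, Ncl and Mybbp1a), which is 17.6%, beside 7.33% of all genes and 12.3% of the 130. With both changes made together, 10 members were (29.4%), beside 12.9% of all genes and 33.8% of the 130. That combined setting was chosen after seeing the data.

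Prmt5 KO replicate 3 stood apart as well, as the lowest of the Prmt5 KO libraries for 27 of the 34 members, beside 41.9% of all genes. In the same library the sum over 9 granulocyte and monocyte markers was the highest, with 62512, 40461 and 392798 scaled counts in Prmt5 KO replicates 1 to 3, against 152066, 43724 and 25571 in Prmt5 fl/fl replicates 1 to 3. S100a8, a neutrophil calcium-binding protein, was at 153117 of these in Prmt5 KO replicate 3, and S100a9, its partner, at 211095. Together S100a8 and S100a9 held most of that library's sum. Between the groups, 6 of the 9 markers had a log2 fold change below 0 and 3 above, with a median of -0.82. The member values of this library also ran with gene length, in the opposite direction to Prmt5 fl/fl replicate 3. Spearman's rho between length and its log2 difference from the mean of the other Prmt5 KO libraries was 0.58 over the 34 members and 0.19 over all genes, and for Prmt5 KO replicate 1 it was -0.48 and -0.26. The median difference of Prmt5 KO replicate 3 was -0.28 in members under 2 kilobases, -0.20 in those of 2 to 4 kilobases and -0.066 in longer ones. The part of the markers or of length in the lower member values of that library was not tested. Within libraries of the same number, Prmt5 KO lay above Prmt5 fl/fl for 29 of 34 members in pair 1 (85.3%, beside 39.5% of all genes). It did so for 27 in pair 2 (79.4%, beside 43.0%) and for 15 in pair 3 (44.1%, beside 45.4%). The median log2 differences were 0.16, 0.12 and -0.15 in pairs 1, 2 and 3, beside -0.095, -0.055 and -0.10 over all genes. The turn in pair 3 was seen in 14 members, among them 6 of the 8 snoRNP genes (Fbl, Nop58, Dkc1, Nhp2, Gar1 and Nop10). The median of the snoRNP genes was 0.23, 0.22 and -0.33, and that of the rRNA transcription genes 0.11, 0.15 and 0.74. Prmt5 KO lay above in all 3 pairs for 12 members and below in all 3 for Nop56, Rrs1 and Sbds. The shares of all genes with these patterns were not counted.

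Summed over the 34 genes, the values were 433029, 407699 and 368904 scaled counts in Prmt5 KO replicates 1 to 3, against 370736, 356008 and 359004 in Prmt5 fl/fl replicates 1 to 3. As a share of all assigned reads this was 0.902% ± 0.0722 in Prmt5 KO cells and 0.810% ± 0.0174 in Prmt5 fl/fl cells (SD, n = 3 each). The highest and middle Prmt5 KO sums lay above all Prmt5 fl/fl sums, and that of Prmt5 KO replicate 3 lay inside their range. The sum is carried by a few genes, since the 5 nucleolar proteins with several roles held 182277 ± 14989 scaled counts in Prmt5 KO cells and 150225 ± 5752 in Prmt5 fl/fl cells (SD, n = 3 each). The snoRNP genes summed to 94286 ± 10341 in Prmt5 KO cells and 94696 ± 7525 in Prmt5 fl/fl cells, and the large subunit genes to 51847 ± 4579 in Prmt5 KO cells and 51477 ± 1380 in Prmt5 fl/fl cells (SD, n = 3 each), differences within the spread between libraries. No test was made of these sums, since the members were chosen with earlier results known.

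**Figure D4:**
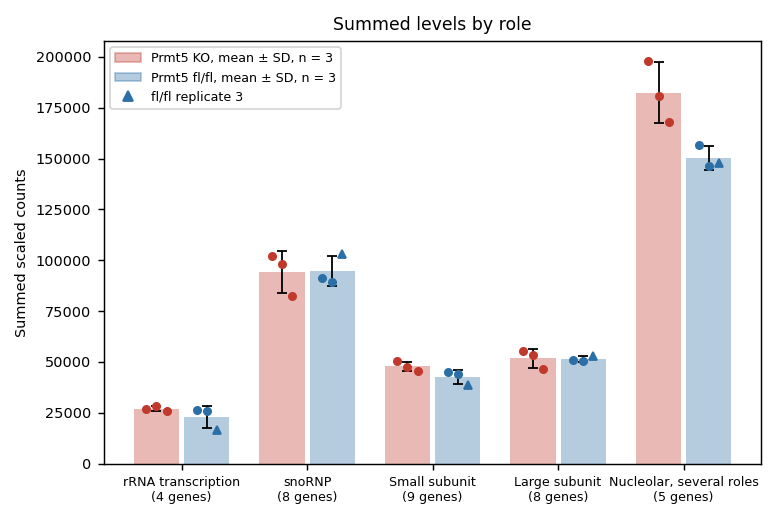
Summed scaled counts of the members of each role, with bars at the group mean and error bars of 1 SD (n = 3), points for single libraries and a triangle for Prmt5 fl/fl replicate 3, Prmt5 KO left of Prmt5 fl/fl. The nucleolar proteins with several roles stood at 168179 to 198021 in Prmt5 KO libraries and 146277 to 156824 in Prmt5 fl/fl libraries, while the snoRNP and large subunit sums overlapped.

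Promoter windows with and without CACGTG were set beside the same fold changes. The 8 members with the motif had a median log2 fold change of 0.21 and the 20 members without it 0.057. The 8 were also longer, with a median length of 3418 bases against 2476 bases, and without Prmt5 fl/fl replicate 3 the medians were 0.10 and 0.069. Myc itself was at 20547, 20824 and 17371 scaled counts in Prmt5 KO replicates 1 to 3, against 20556, 25611 and 25712 in Prmt5 fl/fl replicates 1 to 3. Prmt5 KO replicate 2 lay above Prmt5 fl/fl replicate 1, so the groups overlapped, and the log2 fold change was -0.29 (95% interval -0.61 to 0.033, limma adjusted p = 0.321). None of the 9 tested genes of the MYC network list passed the limma test. At an unadjusted p below 0.05 in limma, 3 of the 9 were lower and 0 higher, beside 13.6% and 4.58% of all genes. Without Prmt5 fl/fl replicate 3, 1 was lower and 0 higher. In 3 all Prmt5 KO values lay below all Prmt5 fl/fl values, beside 19.9% of all genes. DESeq2 called 1 of the 9, as lower (adjusted p = 0.0467), against a background of 6.95% of genes.

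Elsewhere in the pathway, 130 further ribosome biogenesis genes were listed by role, and none passed the limma test. Their median log2 fold change was 0.035, beside -0.048 over all genes. At an unadjusted p below 0.05, 6 were higher (4.62%, beside 4.58% of all genes) and 2 lower (1.54%, beside 13.6%). In 19 all Prmt5 KO values lay above all Prmt5 fl/fl values (14.6%, beside 8.3%), and in 12 all lay below (9.23%, beside 19.9%). By role the medians were -0.084 for 11 further RNA polymerase I subunits and factors, 0.025 for 11 snoRNP assembly factors, 0.043 for 45 small subunit factors, 0.12 for 47 large subunit factors and -0.037 for 14 exosome genes. In the same order they were 0.11, 0.060, 0.049, 0.11 and 0.082 without Prmt5 fl/fl replicate 3, so the RNA polymerase I and exosome medians changed sign. Dis3, a catalytic subunit of the RNA exosome, had the smallest p, with 6787, 7382 and 5947 scaled counts in Prmt5 KO replicates 1 to 3, against 4844, 4707 and 3036 in Prmt5 fl/fl replicates 1 to 3. Its groups did not overlap, and its log2 fold change was 0.70 (95% interval 0.23 to 1.17, limma adjusted p = 0.136), or 0.48 without Prmt5 fl/fl replicate 3. Imp4, a protein of the U3 processome, was at 5719, 5438 and 4900 scaled counts in Prmt5 KO replicates 1 to 3, against 6818, 6451 and 7389 in Prmt5 fl/fl replicates 1 to 3, lower in every Prmt5 KO library, with a log2 fold change of -0.36 (95% interval -0.65 to -0.081, limma adjusted p = 0.181). Wdr18, whose yeast counterpart belongs to the Rix1 complex of the pre-60S particle, was at 9500, 9301 and 7919 scaled counts in Prmt5 KO replicates 1 to 3, against 7499, 6562 and 6760 in Prmt5 fl/fl replicates 1 to 3, higher in every Prmt5 KO library, with a log2 fold change of 0.36 (95% interval 0.065 to 0.65, limma adjusted p = 0.197). DESeq2 called 3 of the 130, namely Dis3 (adjusted p = 0.0149), Wdr18 (0.0436) and Skiv2l2 (0.0498), against a background of 6.95% of genes.

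Because the list was defined by its link to p53, the p53 genes and the 5S particle are set beside it. Trp53 was at 17870, 18634 and 15013 scaled counts in Prmt5 KO replicates 1 to 3, against 14076, 14623 and 16122 in Prmt5 fl/fl replicates 1 to 3, and its log2 fold change was 0.20 (95% interval -0.098 to 0.49, limma adjusted p = 0.45). Of 9 genes in the list of p53 and its targets, 5 rose in Prmt5 KO cells by limma and 0 with the replicate block. This list was chosen with earlier results of these data known, so its count is not independent evidence. Cdkn1a, the cell cycle inhibitor p21, was at 6182, 3140 and 5684 scaled counts in Prmt5 KO replicates 1 to 3, against 511, 764 and 822 in Prmt5 fl/fl replicates 1 to 3, a log2 fold change of 2.81 (95% interval 2.11 to 3.51, limma adjusted p = 0.0195). The other 4 were Ccng1 with 1.19, Phlda3 with 2.58, Eda2r with 3.06 and Zmat3 with 2.80. Left out 1 at a time, the libraries gave 0 calls in this list without Prmt5 KO replicate 1 or Prmt5 KO replicate 3, 5 without Prmt5 KO replicate 2, 1 without Prmt5 fl/fl replicate 1, 2 without Prmt5 fl/fl replicate 2 and 6 without Prmt5 fl/fl replicate 3. Rpl5 and Rpl11, the proteins that carry the signal, had log2 fold changes of 0.15 for Rpl5 and -0.038 for Rpl11, with overlapping groups. Both genes were above 0 without Prmt5 fl/fl replicate 3 (log2 fold changes of 0.16 and 0.25) and with size factors (0.049 and 0.24). Among the markers of other cell types, Itga2b, the platelet integrin, fell by 1.95 on the log2 scale and Klf1, the erythroid factor, fell by 2.11. The Itga2b call was lost under 6 of 18 alternatives, the replicate block and 5 of the settings with 1 library left out among them. The Klf1 call was lost under 13 of 18, among them the block, size factors, TMM, quantile normalization and edgeR. The megakaryocyte marker sum was 29749 to 58209 scaled counts in Prmt5 KO libraries and 68421 to 83877 in Prmt5 fl/fl libraries, and the red cell precursor sum was 7051 to 8108 in Prmt5 KO libraries and 9982 to 16375 in Prmt5 fl/fl libraries, with Hba-a1 and Hbb-b1 at 0 in all libraries. The lymphocyte marker sum was 1684 to 2164 in Prmt5 KO libraries and 1937 to 2999 in Prmt5 fl/fl libraries. The part of these cell types in the members' values was not tested.

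Several counts cannot be assigned with certainty. The kits mark no strand, and 14 members share exon sequence with another annotated gene in GENCODE M21, among them Mybbp1a with Spns2, Tsr1 with Srr, Nop56 with Idh3b and Polr1a with Gm26628. Within 7 members lie 21 annotated snoRNA genes. Npm1 has processed pseudogenes with near-identical sequence, between which the counting may split reads. On build GRCm38, the genes whose groups did not overlap lie at chr16:13780708-13814839 (Rrn3), chr6:71909053-71984935 (Polr1a), chr10:88746607-88826804 (Utp20), chr19:41862851-41896173 (Rrp12), chr11:74898071-74909342 (Tsr1), chr1:86344719-86359400 (Ncl), chr11:72441355-72451768 (Mybbp1a), chr2:130274430-130279313 (Nop56) and chr5:130245731-130255530 (Sbds).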

How the data were processed

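Messenger RNA of sorted mouse HSCs was amplified as cDNA with SMART-Seq v4 and made into Nextera XT libraries after Trizol extraction, per the labels' protocols; neither kit marks strand. STAR, featureCounts and the build mm10 are named in the submitters' processing notes, and the version of neither tool, nor the annotation, is given in the sources used here. In all, 24110 genes and 6 library columns were deposited, and 0 columns were left unused. In the deposited table, Prmt5 fl/fl replicate 2 holds raw read counts. The other columns hold a scaled signal that the authors made by multiplying reads by 44704636 over the library's own total, per the total line in the deposited file. Dividing it out gave whole reads for all values (tolerance 1e-06). Gene length in bases is also a deposited column. No 2 libraries were copies.

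The main test was limma 3.58.1 (R 4.3.3) with a mean-variance trend on log2(scaled count + 1), a scale that understates changes of low genes, for the 14113 genes with a mean of at least 10. It was two-sided, had 4 residual degrees of freedom and was adjusted by Benjamini-Hochberg across every tested gene (threshold 0.05). The design named this test for normalized values, and edgeR 4.0.16 (quasi-likelihood) and DESeq2 1.42.0 were run on the recovered reads as alternatives. So were the replicate block, size factors, TMM, quantile normalization, pseudocounts of 0.5 and 5, no filter, a minimum mean of 50, no trend and each library left out. The fits were tested on simulated data. Libraries of the same number share a title prefix and were treated as pairs because the mice were littermate-matched. Deviations of such libraries from their group mean correlated at -0.14 in pair 1, 0.067 in pair 2 and -0.26 in pair 3.

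The members and the gene lists were chosen with earlier results of these data known, so the list is described and not tested. All members are accounted for. Values per library are given for the 4 members with the smallest p of each role, for the highest per length of each role, and for a few others chosen after their values were seen (Fbl, Nop58, Dkc1 and Gnl3). Of the other ribosome biogenesis genes, the 3 with the smallest p are named, and of the context genes Prmt5, Trp53, Myc and those past the threshold. The motif was searched in the windows of all 28 matched members, and whole windows are shown for Ncl and Mybbp1a, since Rrp12, the other of the 3 members with the smallest p, had no matched window. Protein sequences were not used here. The 9 granulocyte and monocyte markers and 10 lymphocyte markers are those matched by symbol, and 1 further marker of each list was not analysed here. Read totals of 37834096 to 44704636 and at least 979 reads for any member in any library make counting error small beside the spread between libraries.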

Additional observations from a re-analysis of the deposited data

How the results depend on the processing

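The number of the 34 genes called was 0 under all 18 alternatives, and their median log2 fold change ran from 0.0083 without Prmt5 KO replicate 1 to 0.18 with size factors, with 18 to 31 genes above 0. The 103 genes called in all became 1 with the replicate block, 57 with size factors, 67 with TMM, 64 with quantile normalization, 60 with edgeR, 981 with DESeq2 and 270 with size factors without Prmt5 fl/fl replicate 3, a setting chosen after seeing the data. With 1 library left out the count ran from 3 (without Prmt5 KO replicate 1 or Prmt5 KO replicate 3) to 378 (without Prmt5 fl/fl replicate 3), and was 19 without Prmt5 KO replicate 2, 7 without Prmt5 fl/fl replicate 1 and 6 without Prmt5 fl/fl replicate 2; the cause was not tested. With the replicate block Prmt5 kept its log2 fold change of -2.60 with an adjusted p of 0.0618, on 2 residual degrees of freedom, and the block changed no member's call. Of the 130 other ribosome biogenesis genes 3 were called by DESeq2 and 1 with size factors without Prmt5 fl/fl replicate 3.

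The direction of 18 members held under all 18 alternatives, and 16 members, among them Polr1b with 0.31 on all libraries, changed sign in at least 1. With size factors the log2 fold change was 0.044 for Dkc1, 0.062 for Nop10, 0.075 for Nob1, 0.086 for Ltv1, 0.069 for Pes1, 0.0096 for Rrs1 and 0.076 for Gnl3. With TMM it was 0.020 for Dkc1, 0.038 for Nop10, 0.051 for Nob1, 0.062 for Ltv1, 0.045 for Pes1 and 0.051 for Gnl3. In edgeR it was 0.022 for Dkc1, 0.032 for Nop10, 0.050 for Nob1, 0.067 for Ltv1, 0.047 for Pes1 and 0.048 for Gnl3. In DESeq2 it was 0.045 for Dkc1, 0.056 for Nop10, 0.073 for Nob1, 0.090 for Ltv1, 0.070 for Pes1, 0.011 for Rrs1 and 0.072 for Gnl3. With size factors without Prmt5 fl/fl replicate 3 it was 0.11 for Dkc1, 0.20 for Nop10, 0.16 for Nob1, 0.084 for Ltv1, 0.088 for Pes1 and 0.15 for Gnl3. With 1 library left out, the values ran from -0.0038 to 0.18 for Bop1, -0.025 to 0.12 for Bysl, -0.036 to 0.17 for Ddx18, -0.10 to 0.052 for Dkc1, -0.060 to 0.063 for Gnl3, -0.081 to 0.047 for Ltv1, -0.067 to 0.074 for Nob1, -0.10 to 0.11 for Nop10, -0.062 to 0.065 for Nop14, -0.071 to 0.15 for Nop16, -0.030 to 0.17 for Nop58, -0.073 to 0.048 for Pes1, -0.0035 to 0.48 for Polr1b, -0.076 to 0.20 for Ubtf and -0.056 to 0.13 for Wdr12.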

Other observations

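The table also lists Rn45s, the precursor of the 18S, 5.8S and 28S ribosomal RNAs that the 34 genes make and process, a row chosen after its values were seen. It held 502326, 448239 and 294573 scaled counts in Prmt5 KO replicates 1 to 3, against 484303, 413306 and 264868 in Prmt5 fl/fl replicates 1 to 3. The groups overlapped, libraries of the same number lay close together, and replicate 3 was the lowest of each group. The log2 fold change was 0.11 (95% interval -0.53 to 0.74, limma adjusted p = 0.858). The kit amplifies mRNA, which this precursor is not, and the values do not measure its synthesis.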
